A study of Mus musculus with 6 samples.

Results

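The interleukin-3 (IL-3) receptor and its signalling chain were examined as 10 mouse genes, which are Il3ra, Csf2rb, Csf2rb2, Jak1, Jak2, Stat5a, Stat5b, Cish, Socs1 and Pim1. This list of members was drawn up with earlier results of these data known. Its rows were then matched by symbol in the table of normalized read counts, and all 10 were found among 41255 listed genes. At least 1 read was found for 25345 of them. The 11550 with a mean normalized read count of 10 or more were tested, and all 10 members were among these. A normalized read count is the number of reads on a gene divided by a size factor that brings the libraries to a common depth.

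The cells were Ba/F3, a mouse lymphoid line whose survival and growth depend on IL-3, which makes this receptor the main growth signal of the model. IL-3 binds the alpha chain of its receptor, which then pairs with a signalling beta chain. The paired receptor activates the tyrosine kinases JAK2 and JAK1 bound to it, and these phosphorylate the transcription factors STAT5A and STAT5B. STAT5 then switches on survival genes such as Pim1 and also Cish and Socs1, whose products feed back on the receptor and its kinases.

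Messenger RNA was measured in 3 wild type (WT) clones, numbered 28, 29 and 36, and in 3 R98S clones, numbered 11, 13 and 35, with 1 library for each clone. WT clones carried a retroviral human RPL10 cDNA of normal sequence, and R98S clones carried the same cDNA with residue 98 changed from arginine to serine, a change found in T cell acute lymphoblastic leukaemia. All 6 clones shared a short hairpin RNA against the endogenous mouse Rpl10, growth from a single cell, and exposure to cycloheximide at 100 μg/ml for 5 min before RNA isolation. Each clone is 1 integration and selection event, so a p-value describes the spread between clones, and as the RNA came from bulk cultures, fewer cells with a transcript and less transcript per cell cannot be told apart. The comparison asks how the RNA levels of the IL-3 receptor chain differ between cells that carry the mutant and the normal ribosomal protein.

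The libraries held between 21786776 and 24204991 reads, so that 3 reads, taken as the floor of detection, corresponded to a normalized read count of 2.78 to 3.22. Over the 11550 tested genes, 23.9% passed an adjusted p of 0.1 in limma, 10.7% higher and 13.1% lower in R98S clones, and in 37.3% the values of the 3 WT clones did not overlap those of the 3 R98S clones. The mouse Rpl10 row, the hairpin's target, stood at 2853, 3156 and 1900.4 in WT clones and 3028, 1883 and 2617 in R98S clones, with overlapping groups. All clones carry the hairpin and reads of the human cDNA may be counted there, so this row cannot check the knockdown. Of 11 pro-B cell markers, 7 had at most 3 reads in every library, the defining gene Pax5 among them, while Cd79a lay between 996 and 1507 in all clones. The label of a lymphoid line is the study's, and it was not tested by these markers.

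The sequences that set the limits of the receptor measurements are those of both beta chain genes. Csf2rb encodes the beta chain shared by the receptors for IL-3, GM-CSF and IL-5, and Csf2rb2 encodes a second beta chain of the mouse that serves IL-3 alone. They lie side by side on chromosome 15 on opposite strands, Csf2rb2 at chr15:78282507-78305721 on the minus strand and Csf2rb at chr15:78325752-78353847 on the plus strand (GRCm38, GENCODE M21), with a gap of 20030 bases. Their coding sequences were 95.2% identical over 2628 aligned bases. The first 120 coding bases of each are printed here to show how alike the transcripts are, with capitals at the 4 bases where they differ.
Csf2rb: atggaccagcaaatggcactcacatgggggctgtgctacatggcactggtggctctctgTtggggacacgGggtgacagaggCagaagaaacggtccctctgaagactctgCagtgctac
Csf2rb2: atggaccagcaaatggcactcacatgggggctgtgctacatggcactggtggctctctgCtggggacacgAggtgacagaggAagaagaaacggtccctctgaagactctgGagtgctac
Of all stretches of 50 bases in the annotated transcript, 18.4% in Csf2rb and 19.5% in Csf2rb2 occurred without change in another gene, nearly all of them in the partner. At 100 bases the shares were 6.96% and 7.20%. Reads from such stretches could not be assigned to 1 gene, so the sum of both genes is given beside each of them.

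Among the 10 members 3 rose in R98S clones, Csf2rb, Csf2rb2 and Socs1, and 0 fell by limma, also 0 at an unadjusted p under 0.05 and 0 by edgeR or DESeq2 on the recovered reads. That is 30% of the members called, against 23.9% of all tested genes, and the 3 members called higher stand against 10.7% of tested genes called higher. The same 3 members were the ones in which the groups did not overlap, against 37.3% of tested genes. The median log2 fold change of the members was -0.01, beside -0.01 over all tested genes, with a range of -0.33 to 0.82. Fold changes are R98S against WT on the scale of log2(normalized read count + 1).

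**Figure D1:**
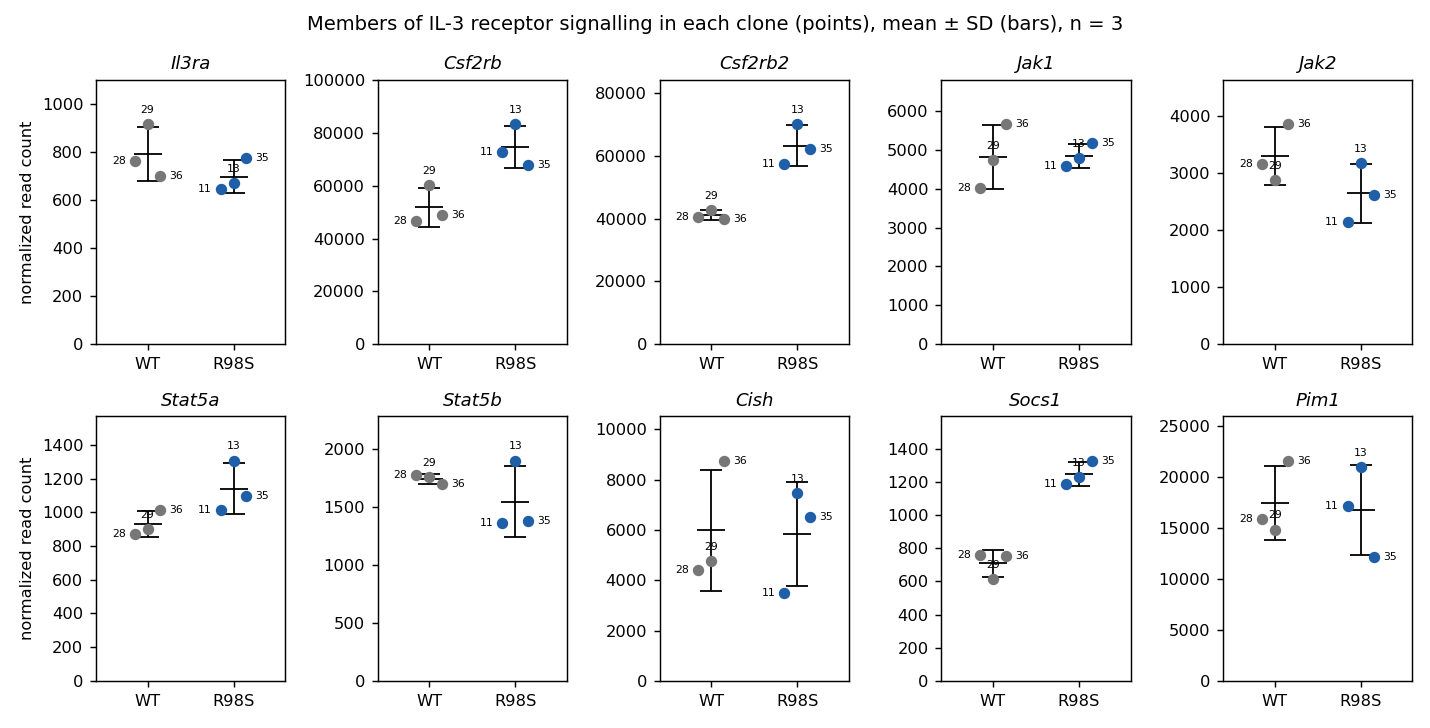
Normalized read count of each of the 10 members (y axis, linear from 0) in 3 WT clones (grey) and 3 R98S clones (blue), with clone numbers beside the points and bars for mean ± SD. In Csf2rb, Csf2rb2 and Socs1 every blue point lies above every grey point, and in the other 7 members the colours overlap.

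Il3ra, which encodes the ligand-binding alpha chain (chr14:14346275-14356011, plus strand), had normalized read counts of 762, 919 and 702 in WT clones and 646, 674 and 775 in R98S clones. The groups overlapped, with R98S clone 35 above WT clones 28 and 36. The mean went from 794 ± 112 to 698 ± 67.9 (SD, n = 3 each), a log2 fold change of -0.18 (95% confidence interval -0.51 to 0.15, limma adjusted p = 0.432). The interval does not exclude a fall of the alpha chain transcript, nor a small rise.

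Csf2rb was read at 46529.6, 60303 and 48793 in WT clones and at 72889, 83429 and 67790.3 in R98S clones. Every R98S clone was above every WT clone, and WT clone 29 came closest. Csf2rb rose from 51875 ± 7386 to 74703 ± 7975 (SD, n = 3 each), a ratio of 1.44 (log2 fold change 0.53, SE 0.15, 95% confidence interval 0.18 to 0.88, limma adjusted p = 0.0509). The call of Csf2rb depended on single libraries. The limma adjusted p was 0.195 without WT clone 28 (log2 fold change 0.46), 0.102 without WT clone 36 (0.49) and 0.134 without R98S clone 11 (0.55).

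Csf2rb2 had values of 40652, 42756 and 39754 in WT clones, which lay within a narrow range, and 57287, 70202 and 62146 in R98S clones. The lowest R98S clone was well above the highest WT clone. Csf2rb2 rose from 41054 ± 1541 to 63212 ± 6523 (SD, n = 3 each), a ratio of 1.54 (log2 fold change 0.62, SE 0.13, 95% confidence interval 0.33 to 0.91, limma adjusted p = 0.0178). It remained called in all 16 alternative fits, with log2 fold changes between 0.54 and 0.69.

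The sum of both beta chain genes does not depend on how shared reads were divided, but would not recover any dropped for low mapping quality. It was 87181, 103058 and 88547 in WT clones and 130176, 153631 and 129936 in R98S clones. The groups were apart again, and the sum rose from 92929 ± 8799 to 137914 ± 13611 (SD, n = 3 each), a ratio of 1.48 (log2 fold change 0.57, SE 0.15, limma adjusted p = 0.0386). The balance between the chains showed no such separation. Per kilobase of exon, Csf2rb2 over Csf2rb was 0.881 ± 0.092 in WT and 0.935 ± 0.0724 in R98S clones (SD, n = 3 each), with overlapping groups (exact two-sided permutation p = 0.5). Here and below, the permutation p of a ratio is that of its log2 ratio of normalized read counts, not scaled by length.

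The kinases JAK1 and JAK2 carry the signal from the receptor, JAK2 being the one bound to the beta chain. Jak1 (chr4:101152367-101265282, minus strand) had counts of 4027, 4729.5 and 5667 in WT clones and 4575, 4778 and 5164 in R98S clones. The R98S clones all fell inside the WT range. The log2 fold change was 0.02 (95% confidence interval -0.29 to 0.34, limma adjusted p = 0.932).

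Jak2 (chr19:29251828-29313080, plus strand) had counts of 3157, 2880.0 and 3867 in WT clones and 2142, 3179 and 2615 in R98S clones. Clones 11 and 35 were below all WT clones, and clone 13 was above WT clones 28 and 29. The mean went from 3301 ± 509 to 2646 ± 519 (SD, n = 3 each), a log2 fold change of -0.33 (95% confidence interval -0.72 to 0.06, limma adjusted p = 0.226). Without R98S clone 13 the log2 fold change of Jak2 was -0.47 (limma adjusted p = 0.0862), which passed the threshold.

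STAT5A and STAT5B are closely related proteins encoded by neighbouring genes on chromosome 11, Stat5b at chr11:100780731-100850724 on the minus strand and Stat5a at chr11:100859351-100885169 on the plus strand, 8626 bases apart. Their coding sequences were 90.8% identical over 2290 aligned bases, and 17.7% of the stretches of 50 bases in Stat5a and 11.8% in Stat5b occurred in another gene. Stat5a had counts of 871, 903 and 1016 in WT clones and 1015, 1307 and 1098 in R98S clones. The groups met at WT clone 36 and R98S clone 11, and the log2 fold change was 0.29 (95% confidence interval -0.02 to 0.60, limma adjusted p = 0.182).

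Stat5b had counts of 1771, 1754 and 1696 in WT clones, with a coefficient of variation of only 2.24%, and 1359, 1899 and 1374 in R98S clones. Clone 13 stood above all WT clones and the other R98S clones stood below them. The log2 fold change was -0.19 (95% confidence interval -0.52 to 0.14, limma adjusted p = 0.408), and without R98S clone 13 it was -0.35 (limma adjusted p = 0.0504), which passed the threshold. The sum of Stat5a and Stat5b was 2642, 2657 and 2712 in WT clones and 2375, 3207 and 2472 in R98S clones, a log2 fold change of -0.01 (95% confidence interval -0.30 to 0.29, limma adjusted p = 0.984).

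The ratio of Stat5a to Stat5b separated the groups, which neither gene did alone. Per kilobase of exon, Stat5a over Stat5b was 0.687, 0.718 and 0.836 in WT clones and 1.04, 0.961 and 1.12 in R98S clones. The groups did not overlap, and the mean went from 0.747 ± 0.0785 to 1.04 ± 0.0775 (SD, n = 3 each). The exact two-sided permutation p was 0.1, the smallest that 3 clones against 3 can give, and 0.2 after Benjamini-Hochberg adjustment over the 4 ratios tested.

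The ratio of beta to alpha chains separated them as well. Per kilobase of exon, Csf2rb plus Csf2rb2 over Il3ra was 58.6, 57.1 and 64.5 in WT clones and 102.8, 116.6 and 85.9 in R98S clones, with no overlap and means of 60.1 ± 3.91 and 101.8 ± 15.4 (SD, n = 3 each). The exact two-sided permutation p was again 0.1, with an adjusted p of 0.2. Jak2 over Jak1 was 0.675 ± 0.0857 in WT and 0.533 ± 0.102 in R98S clones (SD, n = 3 each), with overlapping groups (exact two-sided permutation p = 0.2, adjusted p = 0.267).

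**Figure D2:**
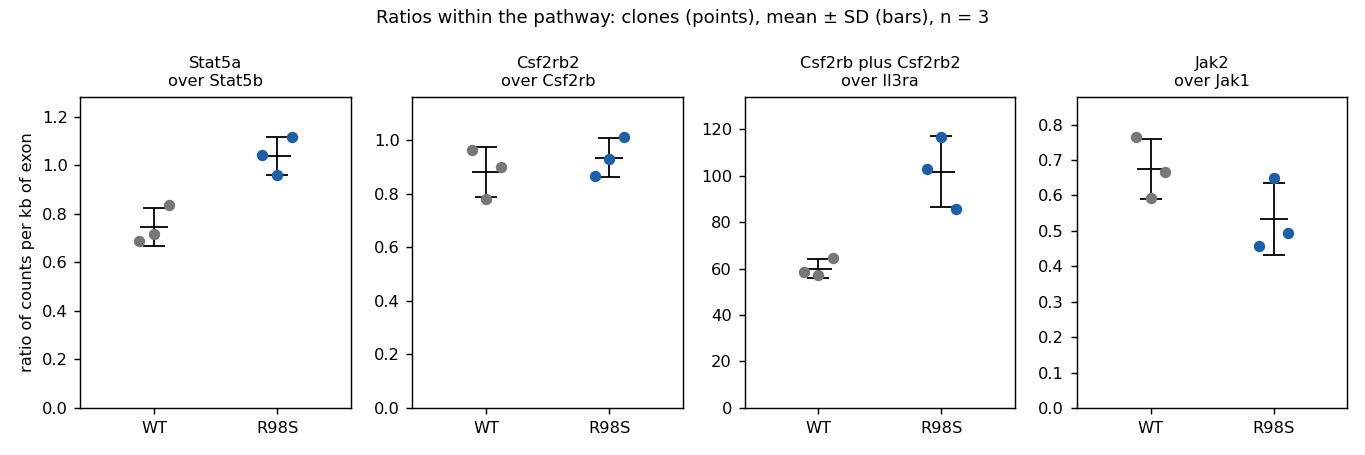
Ratios of counts per kilobase of exon (y axis, linear from 0) for 4 pairs within the pathway in WT (grey) and R98S (blue) clones, with bars for mean ± SD, n = 3. The groups are apart for Stat5a over Stat5b and for the beta chains over Il3ra, and overlap for Csf2rb2 over Csf2rb and for Jak2 over Jak1.

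Of the 3 STAT5 target genes among the members, Socs1 alone was called, and its difference from Cish and Pim1 was not tested. Socs1 encodes an inhibitor that binds the kinase domain of JAK2 (chr16:10782240-10785536, minus strand), and its counts were 759.8, 614 and 752 in WT clones and 1185, 1231 and 1329 in R98S clones. The groups were far apart in relation to their spread. Socs1 rose from 708 ± 82.1 to 1248 ± 73.3 (SD, n = 3 each), a ratio of 1.76 (log2 fold change 0.82, SE 0.13, 95% confidence interval 0.53 to 1.12, limma adjusted p = 0.00739). It remained called in all 17 alternative fits, with log2 fold changes between 0.72 and 0.88.

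Cish encodes a SOCS-family protein that binds the activated receptor and competes with STAT5 (chr9:107296026-107302784, plus strand). Its counts were 4406, 4770.3 and 8755 in WT clones and 3509.9, 7463 and 6493 in R98S clones. Both groups spanned nearly the same range, with coefficients of variation of 40.4% and 35.4%. The log2 fold change was -0.04 (95% confidence interval -0.80 to 0.72, limma adjusted p = 0.951), an interval wide enough to hold a change in either direction of the size seen for Csf2rb2.

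Pim1 encodes a serine/threonine kinase that promotes survival (chr17:29490753-29496112, plus strand). Its counts were 15847, 14829 and 21586 in WT clones and 17133, 20949 and 12121 in R98S clones. The groups overlapped throughout, and the log2 fold change was -0.07 (95% confidence interval -0.58 to 0.43, limma adjusted p = 0.846). Exons of genes on the opposite strand overlap 582 bases of Cish and 468 bases of Pim1. Those antisense genes had at most 22 and 8 reads in any library. Whether the counting used the strand is not given in the sources used here.

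**Figure D3:**
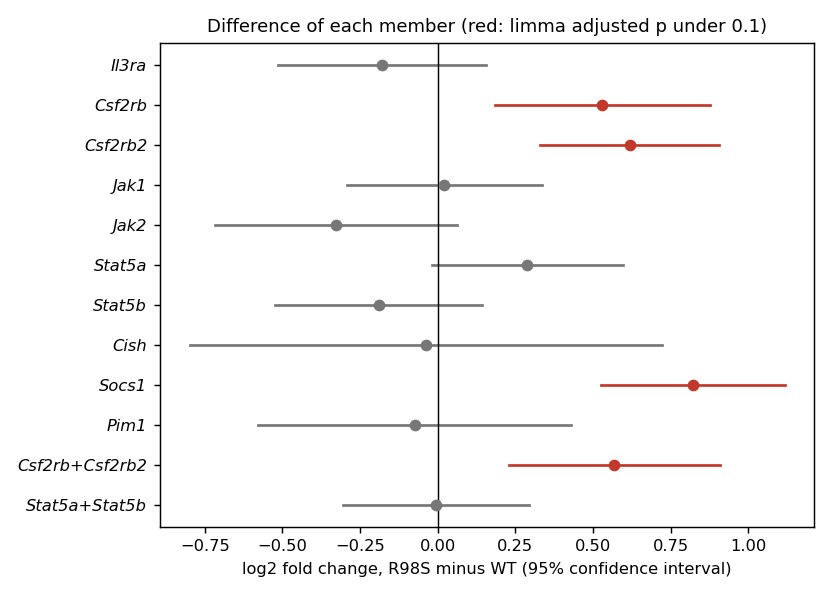
Log2 fold change of each member and of 2 summed gene pairs (x axis, R98S minus WT, points with 95% confidence intervals from limma, n = 3 per group). Red marks a limma adjusted p under 0.1, held by Csf2rb, Csf2rb2, Socs1 and the summed beta chains, and every grey interval crosses 0.

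Clones of 1 genotype also differed among themselves. R98S clone 13 was the highest R98S clone for 7 of the 10 members, and R98S clone 11 was the lowest for 8 of 10. Among WT clones, clone 36 was the highest for 5 of 10 members. Coefficients of variation in the WT group ran from 2.24% for Stat5b to 40.4% for Cish, and in the R98S group from 5.87% for Socs1 to 35.4% for Cish.

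Levels were compared between genes per kilobase of exon, over the 10999 tested genes with an annotated length. The beta chains were among the most abundant transcripts of the cells, Csf2rb with a mean of 12106 normalized reads per kilobase over the 6 clones (rank 105 of 10999) and Csf2rb2 with 10999 (rank 123). Pim1 followed at 5489 (rank 208) and Cish at 1618 (rank 957), both above the 90th percentile of 1423. Jak1 stood at 983, Jak2 at 591, Socs1 at 336, Stat5b at 296, Il3ra at 292 and Stat5a at 261, close to the median of tested genes of 251.

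Not all neighbours in this order could be separated. Ranges over the 6 clones overlapped between Csf2rb and Csf2rb2, between Cish and Jak1, and between Jak2 and Socs1, although the first-named was higher in 5, 6 and 6 of 6 clones. The ranges of Stat5b, Il3ra and Stat5a overlapped, and their order changed from clone to clone. The place of Socs1 differed by group. In R98S clones Socs1 was at 407, 423 and 457 per kilobase, above Stat5b, Il3ra and Stat5a in every clone. In WT clones it was at 261, 211 and 258, below Stat5b and Il3ra in every clone. The ranges of Csf2rb2 and Pim1, of Pim1 and Cish, and of Jak1 and Jak2 did not overlap. The alpha chain was thus read at a mid-range level beside beta chains near the top of the distribution.

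**Figure D4:**
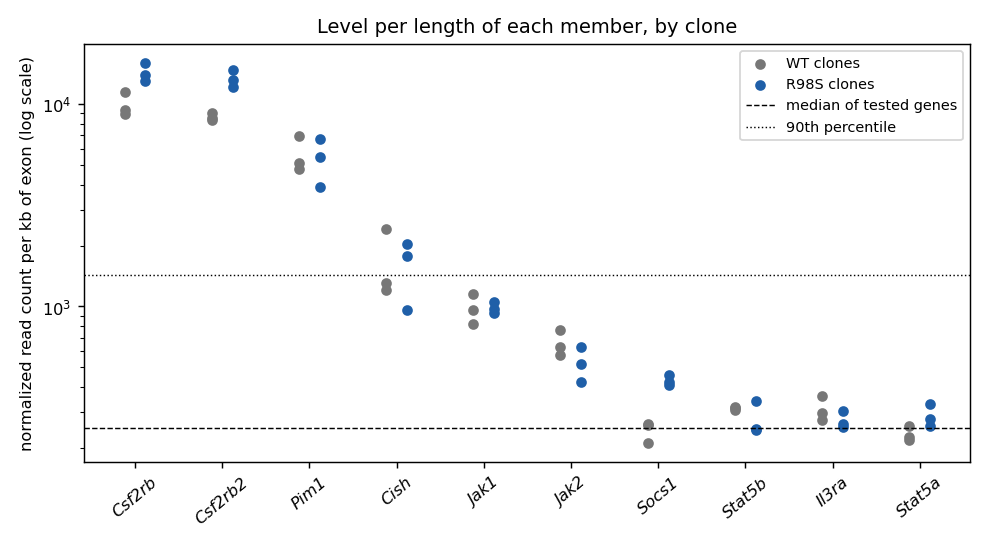
Normalized read count per kilobase of exon of each member (log scale, y axis) in WT (grey) and R98S (blue) clones, ordered by mean level, with lines at the median and the 90th percentile of tested genes. Csf2rb, Csf2rb2 and Pim1 lie above the 90th percentile in all clones, and Socs1, Stat5b, Il3ra and Stat5a lie near the median.

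STAT5 binds the letters TTCNNNGAA, which read the same on both strands, and these letters were looked for in RefSeq promoter windows of 300 bases (250 before to 50 after each start, GRCm38.p6). The letters occurred in 8.30% of 32851 windows, and at least 2 matches in 0.457%. Of the members, 9 had an entry, with 12 windows in all, and Csf2rb had none, so its promoter was not searched. Among the 9, 2 members, Cish and Csf2rb2, held a match. Stretches of 130 bases, 100 before and 30 after the start, are shown for both, with matches in capitals, and for Socs1, the member with the largest change. Cish is at chr9:107296559-107296688 on the plus strand, Csf2rb2 at chr15:78305692-78305821 on the minus strand and Socs1 at chr16:10785507-10785636 on the minus strand, each printed in the direction of its gene.
Cish: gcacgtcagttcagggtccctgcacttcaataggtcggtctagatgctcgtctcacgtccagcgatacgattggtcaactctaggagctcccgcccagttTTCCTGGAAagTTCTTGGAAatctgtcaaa
Csf2rb2: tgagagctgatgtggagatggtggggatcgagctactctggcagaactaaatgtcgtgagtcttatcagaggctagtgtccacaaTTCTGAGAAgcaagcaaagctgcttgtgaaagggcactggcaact
Socs1: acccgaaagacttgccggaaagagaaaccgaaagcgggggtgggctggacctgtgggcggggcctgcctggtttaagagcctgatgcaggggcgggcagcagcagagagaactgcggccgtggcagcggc
Cish held TTCCTGGAA and TTCTTGGAA, starting at bases 1 and 12 of the transcript and not overlapping, and Csf2rb2 held TTCTGAGAA, with its first base 15 bases before the start. Of these 2 genes, Csf2rb2 rose and Cish was not called. The Socs1 window held no such letters, which says nothing of sites elsewhere.

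Ligands and partner chains of the same receptor family were next to absent. Il3 had 1 read, in WT clone 36, Csf2 (GM-CSF) had 0 in every library and Il5 had at most 2, so none was detectable at this depth. Csf2ra and Il5ra, the alpha chains that pair with Csf2rb for GM-CSF and IL-5, had at most 3 and 2 reads. Of the 3 alpha chains that pair with Csf2rb, Il3ra alone was above the floor.

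In the rest of the pathway, 66 further genes were listed by textbook role, also with earlier results known, and 56 were tested. Of these 3 rose and 12 fell, which is 26.8%, close to the 23.9% of all tested genes, and their median log2 fold change was -0.18. In 23 of the 56 the groups did not overlap, against 37.3% of tested genes. The split by role follows.

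**Figure D5:**
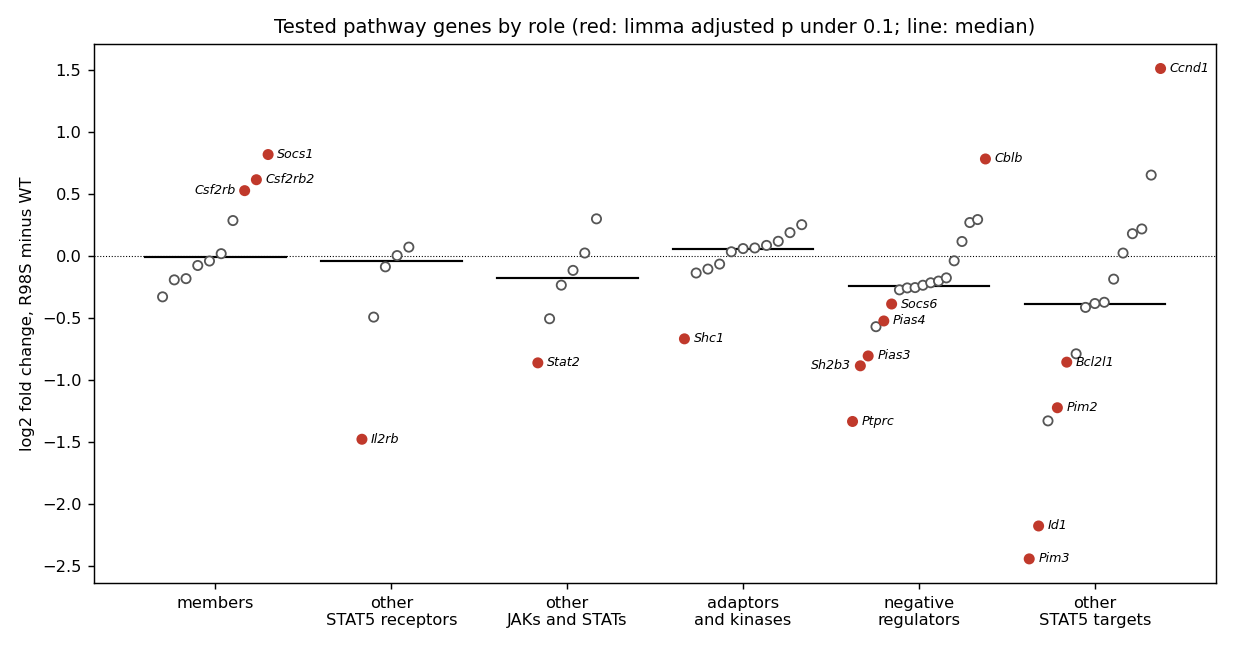
Log2 fold change (y axis, R98S minus WT) of the tested pathway genes by role, 1 point a gene, with red for a limma adjusted p under 0.1 and a line at each median, 1 tested receptor not being shown. The medians lie between -0.38 for other STAT5 targets and 0.06 for adaptors, and most red points outside the members lie below 0.

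Of 10 other receptors that signal through STAT5, 6 were tested, and 1 rose and 1 fell, which is 33.3% called against 23.9% of all tested genes. Il2rb, the beta chain of the IL-2 and IL-15 receptors, was at 539, 732 and 265 in WT and 114, 331 and 128 in R98S clones (log2 fold change -1.48, limma adjusted p = 0.0724). Its groups overlapped at R98S clone 13, and the call was lost without WT clone 28, WT clone 29, R98S clone 11 or R98S clone 35 (limma adjusted p of 0.178, 0.200, 0.215 and 0.193).

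Of 7 other JAKs and STATs 6 were tested and 1, Stat2, which acts downstream of interferon, fell from 947 ± 89.3 to 526 ± 95.7 (SD, n = 3 each, log2 fold change -0.86, limma adjusted p = 0.0132). Of 11 tested adaptors and kinases 1 fell. This was Shc1, the adaptor that links receptors to Ras, which went from 2945 ± 198 to 1860.1 ± 191 (SD, n = 3 each, log2 fold change -0.67, limma adjusted p = 0.0108). In both genes every R98S clone was below every WT clone, and the groups did not overlap in 37.3% of all tested genes. The share called was 16.7% of the tested JAKs and STATs here and 9.09% of the tested adaptors and kinases. Both lie below the 23.9% of all tested genes.

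All 18 negative regulators were tested, and 1 rose and 5 fell, which is 33.3% called against 23.9% of all tested genes. In 12 of the 18 the groups did not overlap, against 37.3% of tested genes, and the median log2 fold change was -0.24. Ptprc, which encodes the phosphatase CD45 that acts on JAKs, fell furthest of the 18, from 10713, 14068 and 8869 to 5657, 4391 and 3366 (log2 fold change -1.33, limma adjusted p = 0.00894). Sh2b3, which encodes the JAK2 inhibitor LNK, was at 2117, 1992 and 1530.2 in WT and 869, 1029 and 1148 in R98S clones (log2 fold change -0.88, limma adjusted p = 0.0127). Both genes were lower in every R98S clone than in any WT clone.

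The SUMO ligases Pias3 and Pias4, inhibitors of STATs, fell with log2 fold changes of -0.80 (limma adjusted p = 0.0189) and -0.52 (0.0468), and Socs6, a relative of Socs1, fell with -0.38 (0.0465). Cblb, a ubiquitin ligase that dampens receptor signals, rose from 578, 762 and 699 to 919, 1226 and 1402 (log2 fold change 0.79, limma adjusted p = 0.027). Socs1 among the members and Cblb here were thus the inhibitors called higher by limma, which does not exclude smaller rises in others. Pias4 was not called without WT clone 28, WT clone 29 or R98S clone 11 (limma adjusted p of 0.118, 0.151 and 0.130), nor was Socs6 without WT clone 28 (0.177).

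Of 16 other genes described as STAT5 targets 15 were tested, and 1 rose and 4 fell, which is 33.3% called against 23.9% of all tested genes. Their median log2 fold change was -0.38, beside -0.01 over all tested genes. Id1, an inhibitor of helix-loop-helix transcription factors, was at 4031, 2876 and 4303 in WT and 683, 1269 and 622 in R98S clones (log2 fold change -2.18, limma adjusted p = 0.00324). Pim3, a kinase related to Pim1, fell from 32.8, 36.5 and 32.0 to 2.81, 7.14 and 7.40 (log2 fold change -2.44, limma adjusted p = 0.0109). The lowest of these was at the floor of its library.

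The other called targets lost their calls in most fits that left out 1 clone, though none changed sign. Pim2, another kinase of the family, was at 1147, 935 and 2049.6 in WT and 357, 1101 and 439 in R98S clones, with R98S clone 13 inside the WT range (log2 fold change -1.22, limma adjusted p = 0.0954). Bcl2l1, which encodes the survival protein BCL-XL, was at 3153, 3046 and 3220.5 in WT and 1168, 2871 and 1559.8 in R98S clones (log2 fold change -0.85, limma adjusted p = 0.0783). Ccnd1, which encodes cyclin D1, was at 11.3, 5.4 and 6.0 in WT and 36.6, 14.3 and 21.3 in R98S clones (log2 fold change 1.52, limma adjusted p = 0.0682). Pim2 and Bcl2l1 lost the call without WT clone 28, 29 or 36 or R98S clone 11 or 35, and Ccnd1 lost it without WT clone 29 or 36 or R98S clone 11 or 35. The adjusted p in these fits was between 0.106 and 0.269. On the recovered reads, Pim2 was called by neither edgeR nor DESeq2 (adjusted p of 0.137 and 0.190), Bcl2l1 by DESeq2 alone (0.0372, against 0.125 in edgeR) and Ccnd1 by edgeR alone, with an adjusted p of 0.105 in DESeq2.

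Marker sums of other blood lineages also differed between the groups. The summed normalized read count of 12 mast cell and myeloid markers, most of it from Gata2, was 25462 to 30352 in WT and 13947 to 17570 in R98S clones, with Fcer1a at 0 throughout and 3 of the 12 at no more than 3 reads in any library. Of these 12 markers 6 were tested, and 3 were called lower and 0 higher, which is 50% called against 23.9% of all tested genes. Those called were Gata2 (log2 fold change -0.86, limma adjusted p = 0.00666), Prtn3 (-2.83, 0.00805) and Lyz2 (-3.34, 0.0366). Lyz2 was under the floor in R98S clones. Cpa3 alone of the 6 had a positive log2 fold change, with overlapping groups and no call (1.43, limma adjusted p = 0.372). The sum of 11 pro-B markers was 1293 to 1407 in WT and 1645 to 1963 in R98S clones. Nearly all of it came from Cd79a and Cd79b, in each of which the groups overlapped. Cd79b was called higher, at 396, 143 and 235 in WT and 625, 705 and 386 in R98S clones (log2 fold change 1.22, limma adjusted p = 0.0617). Cd79a was not called (log2 fold change 0.20, limma adjusted p = 0.449). That of 8 T cell markers, 3 of them (Cd3e, Cd4 and Thy1) at no more than 3 reads, was 55.3 to 115 in WT and 155 to 180 in R98S clones. Its higher values came from Cd3d (13.3 ± 4.44 to 63.8 ± 21.5) and Lck (42.6 ± 13.7 to 94.3 ± 15.6). Cd3g and Tcf7 were at no more than 1.85 in R98S clones, under the floor. In WT clones 28, 29 and 36, Cd3g was at 3.07, 3.22 and 43.0 and Tcf7 at 2.05, 5.37 and 9.01. Cd3g was thus above the floor in WT clone 36 alone, and Tcf7 was under it in WT clone 28. The sum of 4 erythroid markers, most of it from Gata1, overlapped, at 2167 to 3741 and 2216 to 3816. Of the 4, Hba-a1 alone was called. It was at 29.7, 8.60 and 69.1 in WT and 0, 6.12 and 0.925 in R98S clones (log2 fold change -3.52, limma adjusted p = 0.0389), with R98S clones 11 and 35 under the floor. The part of these differences in the receptor, kinase and feedback results was not tested.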

How the data were processed

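Messenger RNA of 6 Ba/F3 clones, 3 WT and 3 R98S by their labels, was sequenced from poly(A) libraries made with a stranded kit. Each deposited value is a signal for 1 gene, which the authors made by counting reads per gene and dividing each library by its DESeq2 size factor. The submitters' processing notes name Bowtie2, TopHat, SAMtools, HTSeq, DESeq2 and the GRCm38 (mm10) genome, and the study's methods give a minimum mapping quality of 10, which can lower the values of near-identical genes. The gene annotation and the strand setting of the counting are not given in the sources used here.

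In all 6 libraries 100% of the values above 0 were whole multiples, within 0.01, of what 1 read is worth (0.925 to 1.07), which gave back the reads. In WT clone 36 this step was 1.0008, so close to 1 that its whole multiples carry less weight. Replicate libraries differed by far more than counting noise, so each was kept as 1 replicate. At this depth the spread between clones, not the number of reads, limits the precision for all members.

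Differences were tested with limma 3.58.1 in R 4.3.3 on log2(normalized count + 1), two-sided, with an intensity trend, for genes with a mean of at least 10, and adjusted by the Benjamini-Hochberg method over all 11550 tested genes. The threshold of 0.1 is the false discovery rate of the study. Fold changes on this scale understate those of low genes. The 4 ratios were tested by exact permutation over the 20 splits of the clones. The tested values were log2 ratios of normalized read counts with 1 added, not scaled by length. For the receptor chains the tested ratio was Il3ra to the sum of Csf2rb and Csf2rb2. The ratios per kilobase printed in the results describe the same pairs but were not themselves tested. Alternatives were pseudocounts of 0.5 and 5, no filter or a minimum mean of 50, other scalings, no intensity trend, a threshold of 0.05, leaving out each clone, summing near-identical pairs, and edgeR 4.0.16 (quasi-likelihood) and DESeq2 1.42.0 on the recovered reads. The model was tested on simulated data.

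Positions and exon lengths came from GENCODE M21, coding identity from alignments with Biopython 1.88, and promoter sequence from RefSeq (GRCm38.p6). The members and lists were chosen with earlier results of these data known. Of the called pathway genes, 1 is not reported here. Named are all members, Rpl10, the other pathway genes with an adjusted p under 0.1, Il3, Csf2, Il5, Csf2ra and Il5ra whatever their values, and cell type markers, and those markers named singly were chosen after their values were seen.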

Additional observations from a re-analysis of the deposited data

How the results depend on the processing

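Socs1 and Csf2rb2 kept their direction and their call under every alternative in which they were fitted, and Csf2rb lost its call at a threshold of 0.05 and without WT clone 28, WT clone 36 or R98S clone 11. The number of genes called was 2755, and 1722 at an adjusted p threshold of 0.05. Of the calls 45.0% were higher in R98S clones, and 52.6% when scaled to the same upper quartile, where higher calls outnumbered lower ones. Leaving out 1 clone gave 1322 (without WT clone 28) to 3213 (without R98S clone 13) calls, the low counts also arising without WT clone 29 (1457) or R98S clone 11 (1560). Members called then ranged from 2 to 5, the 5 without R98S clone 13, when Jak2 and Stat5b were called lower. Signs changed for 3 members that were called under no alternative. Cish was at 0.0025 when scaled to the same upper quartile, and over the fits without 1 clone the log2 fold change ran from -0.25 to 0.29 for Cish, from -0.099 to 0.15 for Jak1 and from -0.25 to 0.14 for Pim1. No ratio changed sign. Of 419 single-gene comparisons, 369 kept direction and call, 41 lost the call, 2 gained it and 7 changed sign. No paired analysis was possible because no clone number occurs in both groups. With 3 clones a group, differences under the confidence intervals given could not be resolved.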
